A study of Mus musculus with 6 samples.

Results

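Glycolysis and hypoxia-response genes were followed in mouse embryonic stem cells whose own Oct4 had been replaced by a coelacanth or a mouse POUV protein. The set holds 34 genes of the 20972 named on the array, listed by symbol under a rule that uses no measured value, though the set was proposed with earlier results of these data known, and 26 of them belong to glycolysis while 8 are other genes of the hypoxia response. Glycolysis splits glucose into pyruvate in the cytosol, and lactate dehydrogenase turns pyruvate into lactate, which leaves the cell through monocarboxylate transporters. When oxygen is low, the hypoxia-inducible factors HIF escape degradation, bind the hypoxia response element in promoters and enhancers, and raise most glycolytic enzymes together with genes for blood vessel growth, pH control and mitochondrial turnover. Pluripotent stem cells are known for strong glycolysis even with oxygen present.

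The cells were ZHBTc4 lines, in which tetracycline silences the resident Oct4 transgene. The LcPOU5F1 group (clones 4 and 5) carried coelacanth POU5F1, the LcPOU5F3 group (clones 1 and 2) carried its paralog coelacanth POU5F3, and the mOct4 group (clones 1 and 2) carried mouse OCT4. All 3 groups had received a pCAG-IP-POUV plasmid and were cultured with tetracycline at 2 µg/mL, with puromycin at 1 µg/mL from day 2, in serum medium with LIF. Colonies were picked at day 9 and expanded, so each sample is 1 picked clone measured on 1 one-colour Agilent array, with RNA of integrity number 10 and 2 arrays a group. Levels below are log2 signals relative to the 75th percentile of the array, so 0 is the signal of that percentile. Differences are log2 fold changes ± standard error from limma over all 6 arrays, and a gene is called where the p adjusted by Benjamini-Hochberg over 14595 genes is under 0.05. Each p-value is set by how much separately picked clones differ.

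An array measured 43.5% to 57.8% of its probes well above background, with no saturated spot. The mouse Pou5f1 probe cleared background on each mOct4 array and on none of the coelacanth arrays. It was at least 2.18-fold lower in LcPOU5F1 clones and at least 2.98-fold lower in LcPOU5F3 clones than in mOct4 clones. Neither difference passed in limma (adjusted p = 0.26 and 0.070), and the LcPOU5F3 clones were 2.75 apart. Summed linear signals of 8 embryonic stem cell markers, in multiples of the 75th percentile, were 341 to 419 in LcPOU5F1 clones, 55.5 to 106 in LcPOU5F3 clones and 385 to 407 in mOct4 clones. Sums of 9 trophectoderm markers were 23.4 to 31.8 in LcPOU5F1 clones, 518 to 542 in LcPOU5F3 clones and 33.4 to 33.8 in mOct4 clones, with Elf5 not above background on any array. The 7 primitive endoderm markers summed to 105 to 133, 182 to 244 and 107 to 114 in the same order, with Foxa2 above background on 1 array in all. The 7 fibroblast or mesenchyme markers summed to 1.79 to 1.81, 42.0 to 87.4 and 3.33 to 3.49, with Col1a1 not above background on either LcPOU5F3 array. Linear sums follow their brightest members, for trophectoderm in LcPOU5F3 clones Krt18 and Krt8. In the same clones the brightest was Sparc for primitive endoderm and Tagln for fibroblast or mesenchyme. Sparc was not called in LcPOU5F3 against mOct4 clones (0.75 ± 0.23, adjusted p = 0.074). Of the 7 fibroblast or mesenchyme markers, 4 were called higher in that comparison, where 11.8% of all genes rose. The collagens Col1a1, Col1a2 and Col3a1 were not called (-0.80, -0.46 and 0.72). Of 8 trophectoderm markers tested in LcPOU5F3 against mOct4 clones, 6 were called higher and 1 lower, where 11.8% of all genes went each way. Krt7, among the 6, cleared background on 1 mOct4 array and on no LcPOU5F1 array. It was kept for testing through its LcPOU5F3 signal alone, so it could hardly be found lower in LcPOU5F3 clones. The lower marker was Eomes (-2.02 ± 0.39, adjusted p = 0.024), and Tfap2c was not called (0.05 ± 0.18). In such bulk samples, fewer cells of a type and less RNA per cell cannot be told apart. These marker sums moved with the LcPOU5F3 group in every result below that sets it against another group, and their part in those results was not tested.

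All 34 genes passed the filter on dim probes, and 31 were well above background on all 6 arrays. In LcPOU5F3 against mOct4 clones, 12 of 34 were called, where 23.6% of all genes tested were called. Of these, 4 rose (11.8% of all genes rose) and 8 fell (11.8% of all genes fell). The genes that rose were Slc2a1, Pfkfb3, Ndrg1 and Ankrd37, and those that fell were Pfkp, Aldoa, Pgk1, Pgam1, Ldhb, Pdk1, Vegfa and Car9. The median log2 fold change was -0.31 over the 34 genes and -0.09 over all genes. The clones of both groups did not overlap for 27 of the 34, against 68.4% of all genes. None of the 12 was called with mOct4 clone 1 left out or with mOct4 clone 2 left out, and 7 of the 34 were called without LcPOU5F3 clone 2. Calls over all genes also fell, to 35 and 41, when mOct4 clones 1 and 2 were left out in turn. The array of mOct4 clone 2 was the only one on a second slide, so a fit with the slide as a block equals leaving that clone out.

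In LcPOU5F1 against mOct4 clones, limma called 0 of 34, where 0.0343% of all genes were called (0.0137% higher and 0.0206% lower). An unadjusted p under 0.05 was reached by 6 of the 34 and by 2265 of all 14595 genes. The smallest adjusted p of a member was 0.12, for Eno2. The median log2 fold change was -0.17 over the 34 genes and 0.10 over all genes, and clones did not overlap for 21 of the 34, against 60.6% of all genes. Of the 34 intervals at 95% confidence, 24 lay within 1 on the log2 scale on both sides of 0, and 10 reached beyond it. With LcPOU5F3 clone 1 or clone 2 left out of the shared fit, 1 gene was called. Centring the arrays on their median in place of the 75th percentile called 4 of the 34, all lower, and moved the median of all genes in this comparison from 0.10 to -0.27.

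In LcPOU5F1 against LcPOU5F3 clones, 7 of 34 were called, where 20.5% of all genes were called. Of these, 3 were higher in LcPOU5F1 clones (10.5% of all genes), namely Pfkp, Pdk1 and Car9. The 4 lower in LcPOU5F1 clones (9.98% of all genes) were Pfkfb3, Car12, Ndrg1 and Ankrd37. The median was 0.22 over the 34 genes and 0.21 over all genes, and clones did not overlap for 25, against 65.4% of all genes. The 7 calls became 4 without LcPOU5F1 clone 4, 2 without LcPOU5F1 clone 5, 14 without LcPOU5F3 clone 1, and 1 without either mOct4 clone. Calls over all 14595 genes moved with them, to 685, 487, 5920 and 498. Median centring called 1 higher and 5 lower, and quantile normalization 3 higher and 9 lower. This comparison shares the LcPOU5F3 arrays and the estimate of spread with the first, so the calls of both are not independent. A total of 13 of the 34 genes were called in at least 1 comparison and 21 in none.

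**Figure D1:**
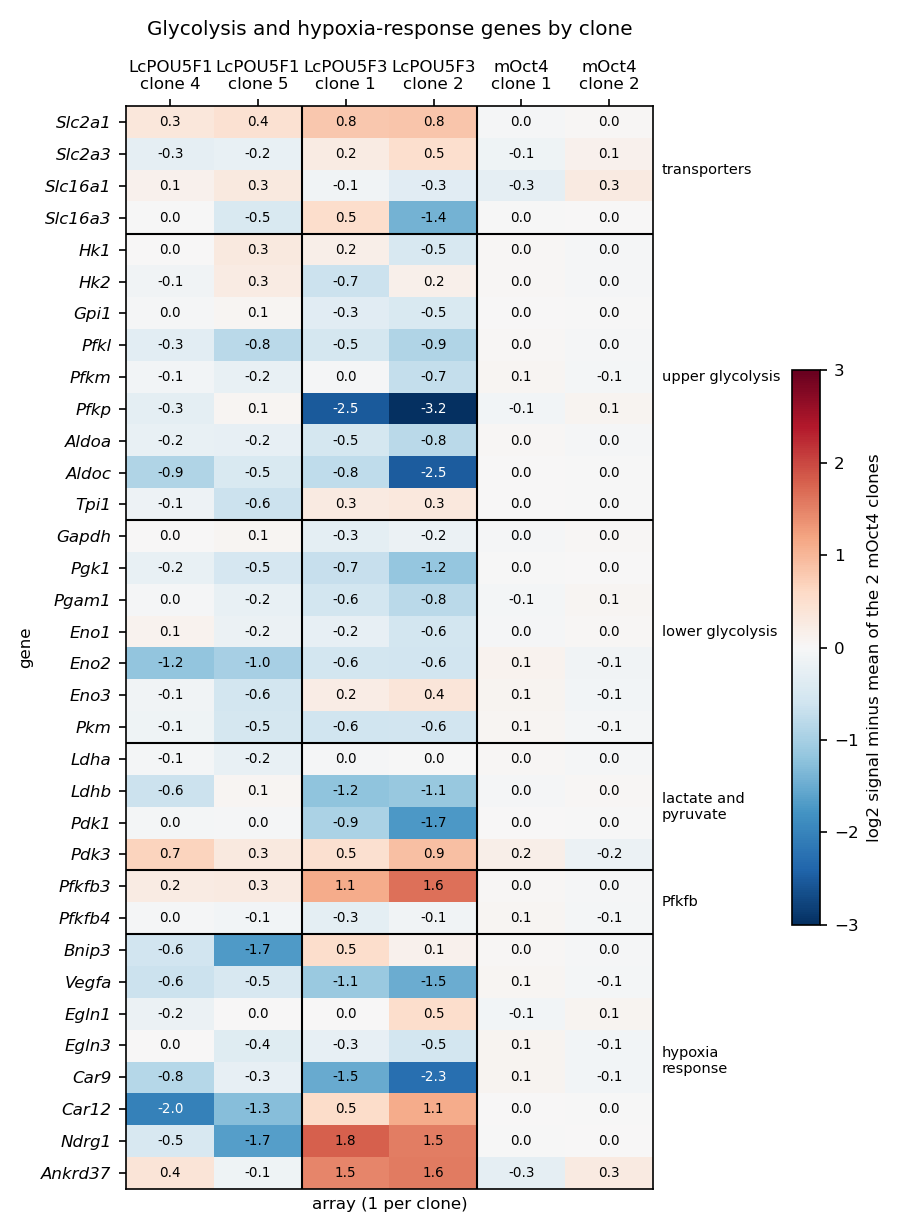
Heat map of the 34 genes (down the page, grouped by role) on each of the 6 arrays (across), as the log2 signal minus the mean of the mOct4 clones, in numbers and in colour on a scale that spans 3 on both sides of 0. The LcPOU5F3 columns hold the deepest blue, at Pfkp (0.34 and -0.32 in LcPOU5F3 clones, against 2.78 and 2.92 in mOct4 clones on the percentile scale), and the deepest red, at Ndrg1.

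**Figure D2:**
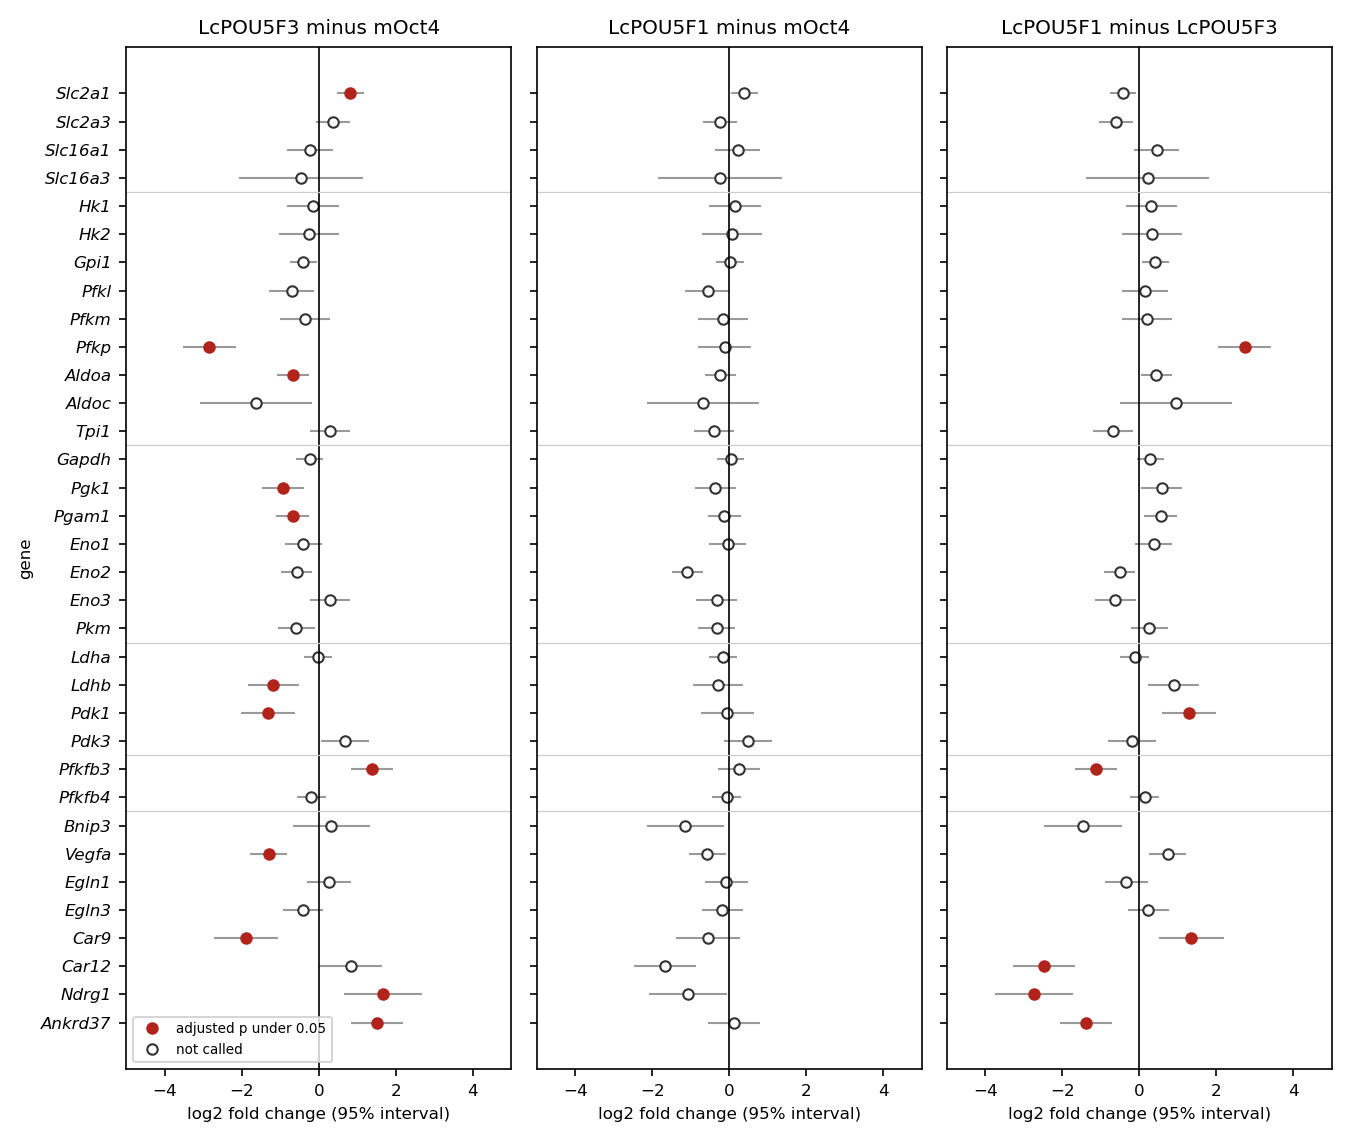
Log2 fold changes of the 34 genes (points) with 95% intervals (lines) in each comparison, filled where the adjusted p is under 0.05. The left panel holds 12 filled points, the middle panel 0 and the right panel 7.

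The promoters of these genes were read for the core of the hypoxia response element, in the forms ACGTG and GCGTG on either strand. RefSeq windows of GRCm38.p6, which run from 250 bases before to 50 bases after an annotated start, matched 32 of the 34 genes by symbol. One or both forms stood in a window of 28 of the 32 genes (87.5%), against 12628 of 27025 genes in the whole table (46.7%). Counted by window, the shares were 78.3% of 46 windows and 43.8% of 32851. The whole table was not limited to genes measured above background here, and promoters of like base content were not compared. Among genes with a window that were called in a comparison, 11 of 12 had a match, and among those not called, 17 of 20 (85.0%). The octamer ATGCAAAT, which POU factors bind, stood in windows of 2 of the 32 genes (6.25%), Egln3 and Pfkfb3, against 1.97% of genes in the table. Windows of 4 called genes with a core, and of the called gene without one, are shown so that genes that rose and genes that fell can be read side by side. Capitals mark ACGTG and GCGTG on the printed strand or, as CACGT and CACGC, on the other. They are Pfkp at chr13:6648722-6649021 (minus strand), Pgk1 at chrX:106186850-106187149 (plus), Slc2a1 at chr4:119108495-119108794 (plus), Ankrd37 at chr8:45999801-46000100 (minus) and Car12 at chr9:66713436-66713735 (plus).
Pfkp: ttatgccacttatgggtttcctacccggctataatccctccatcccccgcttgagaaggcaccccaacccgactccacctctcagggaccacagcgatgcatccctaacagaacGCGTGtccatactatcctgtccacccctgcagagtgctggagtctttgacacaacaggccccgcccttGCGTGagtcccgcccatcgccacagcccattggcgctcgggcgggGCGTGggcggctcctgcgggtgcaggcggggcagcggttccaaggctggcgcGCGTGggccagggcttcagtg
Pgk1: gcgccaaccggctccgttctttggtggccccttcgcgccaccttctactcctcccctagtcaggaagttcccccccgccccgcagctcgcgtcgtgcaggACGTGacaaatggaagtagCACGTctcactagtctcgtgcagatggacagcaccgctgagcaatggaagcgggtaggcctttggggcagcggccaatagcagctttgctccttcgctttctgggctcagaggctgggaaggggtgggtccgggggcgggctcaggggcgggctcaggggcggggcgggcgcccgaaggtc
Slc2a1: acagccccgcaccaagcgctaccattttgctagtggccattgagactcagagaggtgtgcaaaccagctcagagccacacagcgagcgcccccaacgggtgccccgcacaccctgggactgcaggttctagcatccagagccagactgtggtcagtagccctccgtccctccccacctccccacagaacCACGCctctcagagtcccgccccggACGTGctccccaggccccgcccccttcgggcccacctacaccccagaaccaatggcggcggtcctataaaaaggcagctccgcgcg
Ankrd37: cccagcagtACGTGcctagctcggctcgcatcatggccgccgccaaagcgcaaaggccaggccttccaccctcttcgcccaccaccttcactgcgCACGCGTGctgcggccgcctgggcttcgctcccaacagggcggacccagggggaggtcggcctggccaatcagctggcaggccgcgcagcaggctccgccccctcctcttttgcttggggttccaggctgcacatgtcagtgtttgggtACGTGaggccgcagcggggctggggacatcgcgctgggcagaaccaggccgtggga
Car12: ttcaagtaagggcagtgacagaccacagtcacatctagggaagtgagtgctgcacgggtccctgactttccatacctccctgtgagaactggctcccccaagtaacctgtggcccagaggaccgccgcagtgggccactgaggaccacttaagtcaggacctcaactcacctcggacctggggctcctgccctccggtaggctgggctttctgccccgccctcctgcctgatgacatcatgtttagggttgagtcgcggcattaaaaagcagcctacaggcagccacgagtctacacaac
Pfkp held 4 copies of GCGTG and Pgk1 held 2 of ACGTG, and both genes fell in LcPOU5F3 clones. Slc2a1 held 1 of each, and Ankrd37 held 2 of each, the GCGTG copies overlapping on opposite strands in the run CACGCGTG, and both genes rose. The letters thus stood in windows of genes of either direction. A match describes the letters in the window and not a bound site.

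**Figure D3:**
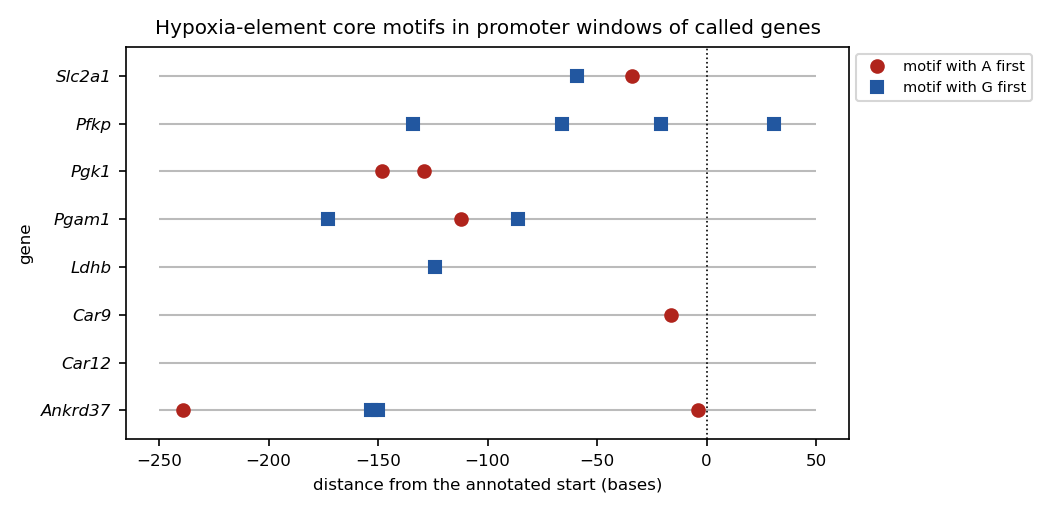
Positions of the core motifs (circles for the form that begins with A, squares for the form that begins with G, either strand) in the RefSeq windows of the 8 called genes that have 1 window each, in bases from the annotated start. Pfkp holds 4 squares, Pgk1 holds 2 circles and Car12 has no symbol on its line.

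Among the 4 transporters, Slc2a1 alone was called, higher in LcPOU5F3 than in mOct4 clones, where 11.8% of all genes rose. Slc2a1, which encodes the glucose transporter GLUT1, stood at 6.79 and 6.89 in LcPOU5F1 clones, 7.25 and 7.28 in LcPOU5F3 clones and 6.42 and 6.47 in mOct4 clones. The 3 groups did not overlap, with LcPOU5F3 highest and LcPOU5F1 between. The LcPOU5F3 clones exceeded the mOct4 clones by 0.82 ± 0.14, or 1.77-fold (adjusted p = 0.018), while LcPOU5F1 against mOct4 (0.40 ± 0.14, adjusted p = 0.29) and LcPOU5F1 against LcPOU5F3 (-0.43 ± 0.14, adjusted p = 0.082) did not pass. Slc2a3, which encodes the high-affinity transporter GLUT3, had 7.32 and 7.36 in LcPOU5F1 clones, 7.82 and 8.09 in LcPOU5F3 clones and 7.46 and 7.70 in mOct4 clones. Its order was LcPOU5F3, mOct4, LcPOU5F1 without overlap, and no difference passed (LcPOU5F3 minus mOct4 0.37 ± 0.17, adjusted p = 0.17).

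The lactate carriers were not called. Slc16a1 (MCT1) lay at -1.20 and -1.03 in LcPOU5F1 clones, -1.45 and -1.67 in LcPOU5F3 clones and -1.61 and -1.06 in mOct4 clones. Slc16a3 (MCT4), the carrier of lactate export, lay at 3.34 and 2.90 in LcPOU5F1 clones, 3.87 and 1.94 in LcPOU5F3 clones and 3.35 and 3.37 in mOct4 clones. The LcPOU5F3 clones fell on both sides of the mOct4 clones, 1.93 apart, and a second Slc16a3 probe showed the same order (3.75 and 1.86 in LcPOU5F3 clones, against 3.24 and 3.17 in mOct4 clones). The interval for LcPOU5F3 minus mOct4 accordingly ran from -2.06 to 1.16.

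Of the 9 genes of upper glycolysis, 2 fell in LcPOU5F3 clones and none rose, a called share of 22.2%, near the 23.6% of all genes. Pfkp encodes the platelet-type subunit of phosphofructokinase, the enzyme of the committed step. Its level was 2.57 and 2.92 in LcPOU5F1 clones, 0.34 and -0.32 in LcPOU5F3 clones and 2.78 and 2.92 in mOct4 clones. Both LcPOU5F3 clones lay more than 2 log2 units below every other clone, and LcPOU5F1 and mOct4 clones overlapped. Pfkp fell by 2.84 ± 0.27 in LcPOU5F3 against mOct4 clones, 7.16-fold (adjusted p = 0.0066), and was 6.65-fold higher in LcPOU5F1 than in LcPOU5F3 clones (2.73 ± 0.27, adjusted p = 0.0075). LcPOU5F1 minus mOct4 was -0.11 ± 0.27, with an interval from -0.80 to 0.58. A second, dimmer Pfkp probe disagreed, at -2.42 and -1.73 in LcPOU5F1 clones, -2.08 and -3.49 in LcPOU5F3 clones and -2.16 and -2.27 in mOct4 clones, where LcPOU5F3 minus mOct4 was -0.57 (adjusted p = 0.50 over all probes). The position of these probes within the Pfkp transcript is unknown from the sources used here.

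The other phosphofructokinase subunits were not called. Pfkl, the liver-type subunit, had 2.38 and 1.89 in LcPOU5F1 clones, 2.18 and 1.80 in LcPOU5F3 clones and 2.73 and 2.67 in mOct4 clones. Every coelacanth clone thus lay below both mOct4 clones (LcPOU5F3 minus mOct4 -0.71 ± 0.23, adjusted p = 0.084). Pfkm, the muscle-type subunit, had 2.37 and 2.23 in LcPOU5F1 clones, 2.44 and 1.76 in LcPOU5F3 clones and 2.52 and 2.40 in mOct4 clones, with LcPOU5F3 and mOct4 overlapping.

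Aldoa encodes the main aldolase, which splits fructose bisphosphate. It stood at 8.49 and 8.46 in LcPOU5F1 clones, 8.18 and 7.89 in LcPOU5F3 clones and 8.74 and 8.66 in mOct4 clones. The groups did not overlap, with LcPOU5F3 lowest. Aldoa fell 1.59-fold in LcPOU5F3 against mOct4 clones (-0.67 ± 0.16, adjusted p = 0.042). Aldoc, the brain-type aldolase, had 2.83 and 3.26 in LcPOU5F1 clones, 2.96 and 1.22 in LcPOU5F3 clones and 3.74 and 3.71 in mOct4 clones. Both LcPOU5F3 clones were below both mOct4 clones but 1.74 apart, and the difference of -1.64 ± 0.57 did not pass (adjusted p = 0.096).

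The hexokinases, which trap glucose in the cell as glucose phosphate, overlapped between groups. Hk1 had 4.06 and 4.36 in LcPOU5F1 clones, 4.23 and 3.58 in LcPOU5F3 clones and 4.09 and 4.02 in mOct4 clones. Hk2 had 3.60 and 3.95 in LcPOU5F1 clones, 3.05 and 3.85 in LcPOU5F3 clones and 3.74 and 3.66 in mOct4 clones. LcPOU5F3 minus mOct4 was -0.15 for Hk1 (interval -0.82 to 0.51) and -0.25 for Hk2 (-1.03 to 0.53). The isomerases Gpi1 and Tpi1 were also not called (LcPOU5F3 minus mOct4 -0.40 and 0.29), and 3 Gpi1 probes gave values of -0.40 to -0.54.

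Of the 7 genes of lower glycolysis, 2 fell in LcPOU5F3 clones, a called share of 28.6%, near the 23.6% of all genes. For all 7, the LcPOU5F3 clones did not overlap the mOct4 clones, against 68.4% of all genes. The LcPOU5F3 clones lay below for 6 and above for Eno3. Pgk1, the kinase that yields the first ATP of the pathway, had 6.82 and 6.54 in LcPOU5F1 clones, 6.33 and 5.88 in LcPOU5F3 clones and 7.03 and 7.04 in mOct4 clones. The order mOct4, LcPOU5F1, LcPOU5F3 held without overlap, and Pgk1 fell 1.90-fold in LcPOU5F3 against mOct4 clones (-0.93 ± 0.21, adjusted p = 0.036). Pgam1, phosphoglycerate mutase, had 7.65 and 7.45 in LcPOU5F1 clones, 7.13 and 6.88 in LcPOU5F3 clones and 7.63 and 7.73 in mOct4 clones. LcPOU5F1 and mOct4 clones overlapped, LcPOU5F3 clones lay below them, and Pgam1 fell 1.60-fold against mOct4 (-0.68 ± 0.17, adjusted p = 0.043). Of the 12 calls against mOct4 clones, Aldoa, Pgk1 and Pgam1 were the least stable, each past the threshold with 1 of the 6 arrays left out in turn.

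Gapdh, the dehydrogenase often used as a loading reference, was not called in any comparison. Its 7 probes gave LcPOU5F3 minus mOct4 values between -0.51 and -0.24. Pkm, pyruvate kinase, differed by -0.58 ± 0.19 in the same comparison (adjusted p = 0.079). Several glycolytic genes, Gapdh, Aldoa, Pgk1, Pgam1, Eno1, Ldha and Pkm among them, have near-identical processed copies in the genome, so which copy a probe read is uncertain.

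The enolases, which form phosphoenolpyruvate, did not share 1 pattern. Eno1, the ubiquitous form, had 8.05 and 7.78 in LcPOU5F1 clones, 7.71 and 7.39 in LcPOU5F3 clones and 7.91 and 8.0 in mOct4 clones. Eno2, the neuronal form, had -1.09 and -0.89 in LcPOU5F1 clones, -0.46 and -0.49 in LcPOU5F3 clones and 0.19 and 0.00 in mOct4 clones. Its groups did not overlap, with LcPOU5F1 lowest, and LcPOU5F1 minus mOct4 was -1.09 ± 0.16 (interval -1.49 to -0.69, adjusted p = 0.12). Eno3, the muscle form, had 1.31 and 0.86 in LcPOU5F1 clones, 1.64 and 1.78 in LcPOU5F3 clones and 1.49 and 1.33 in mOct4 clones, with LcPOU5F3 highest. No enolase difference was called.

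At the pyruvate branch, 2 of 4 genes fell in LcPOU5F3 clones, where 11.8% of all genes fell. Ldhb encodes the heart-type subunit of lactate dehydrogenase. It had 6.26 and 6.97 in LcPOU5F1 clones, 5.69 and 5.77 in LcPOU5F3 clones and 6.87 and 6.95 in mOct4 clones. Both LcPOU5F3 clones lay below all others, LcPOU5F1 and mOct4 overlapped, and Ldhb fell 2.26-fold in LcPOU5F3 against mOct4 clones (-1.18 ± 0.26, adjusted p = 0.033). LcPOU5F1 minus LcPOU5F3 was 0.89 ± 0.26 (adjusted p = 0.068).

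Ldha, the muscle-type subunit and a classical HIF target, had 7.75 and 7.59 in LcPOU5F1 clones, 7.79 and 7.81 in LcPOU5F3 clones and 7.85 and 7.79 in mOct4 clones. LcPOU5F3 and mOct4 clones overlapped, with a difference of -0.02 ± 0.14 and an interval from -0.39 to 0.34. The dimmer Ldha probes gave -0.37 and -0.09, neither called.

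Pdk1, a kinase that switches off pyruvate dehydrogenase, had 3.27 and 3.29 in LcPOU5F1 clones, 2.38 and 1.61 in LcPOU5F3 clones and 3.33 and 3.32 in mOct4 clones. LcPOU5F1 and mOct4 clones lay close together and both LcPOU5F3 clones lay well below. Pdk1 fell 2.51-fold in LcPOU5F3 against mOct4 clones (-1.33 ± 0.27, adjusted p = 0.029) and was 2.44-fold higher in LcPOU5F1 than in LcPOU5F3 clones (1.28 ± 0.27, adjusted p = 0.035). Its paralog Pdk3 had 0.72 and 0.35 in LcPOU5F1 clones, 0.53 and 0.95 in LcPOU5F3 clones and 0.23 and -0.12 in mOct4 clones. Every coelacanth clone was above both mOct4 clones, and LcPOU5F3 minus mOct4 was 0.68 ± 0.24 (adjusted p = 0.10).

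Pfkfb3 makes fructose 2,6-bisphosphate, the activator of phosphofructokinase. It had -0.04 and 0.00 in LcPOU5F1 clones, 0.84 and 1.37 in LcPOU5F3 clones and -0.23 and -0.31 in mOct4 clones. LcPOU5F3 clones lay above all others. Pfkfb3 rose 2.60-fold in LcPOU5F3 against mOct4 clones (1.38 ± 0.22, adjusted p = 0.016) and was 2.18-fold lower in LcPOU5F1 than in LcPOU5F3 clones (-1.13 ± 0.22, adjusted p = 0.027). A dimmer probe to another Pfkfb3 transcript gave 0.69 for LcPOU5F3 minus mOct4 (adjusted p = 0.27 over all probes). Pfkfb4, a paralog with the same pair of activities, was not called (LcPOU5F3 minus mOct4 -0.20 ± 0.15, interval -0.57 to 0.18).

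**Figure D4:**
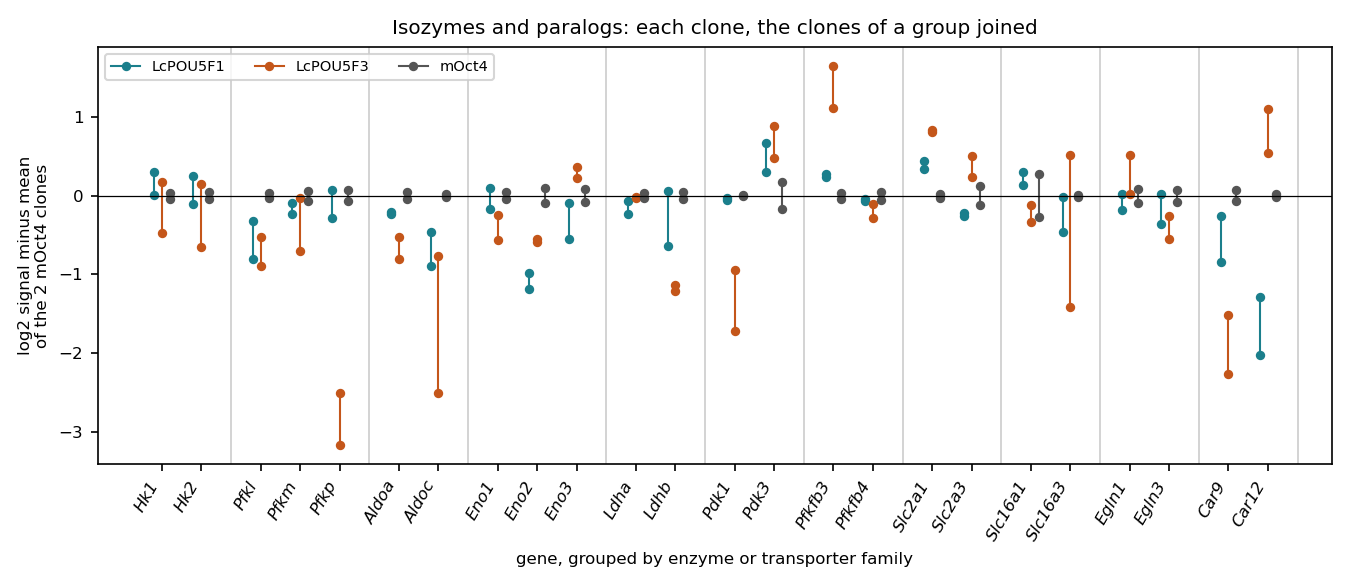
Log2 signal of each clone minus the mean of the mOct4 clones, for families of isozymes and paralogs, with the clones of a group joined by a line. The LcPOU5F3 clones of Pfkp, Ldhb, Pdk1 and Car9 lie below those of their paralogs, and the widest joined pairs belong to Slc16a3 (1.93 apart) and Aldoc (1.74 apart).

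The 8 hypoxia-response genes outside glycolysis moved both ways in LcPOU5F3 clones, with 2 higher, 2 lower and 4 not called, where 11.8% of all genes rose and 11.8% fell. Vegfa, the growth factor for blood vessels, had 2.67 and 2.83 in LcPOU5F1 clones, 2.21 and 1.82 in LcPOU5F3 clones and 3.37 and 3.26 in mOct4 clones. The groups did not overlap, in the order mOct4, LcPOU5F1, LcPOU5F3. Vegfa fell 2.46-fold in LcPOU5F3 against mOct4 clones (-1.30 ± 0.19, adjusted p = 0.014), and a second probe fell by 0.85 (adjusted p = 0.040 over all probes). LcPOU5F1 minus LcPOU5F3 was 0.73 ± 0.19 (adjusted p = 0.052).

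Car9 and Car12 encode membrane carbonic anhydrases that turn carbon dioxide outside the cell into bicarbonate and acid. Car9 had -2.01 and -1.41 in LcPOU5F1 clones, -2.68 and -3.43 in LcPOU5F3 clones and -1.09 and -1.23 in mOct4 clones, and LcPOU5F3 clone 1 did not measure it well above background. The groups did not overlap, and Car9 fell 3.72-fold in LcPOU5F3 against mOct4 clones (-1.89 ± 0.33, adjusted p = 0.020) and was 2.54-fold higher in LcPOU5F1 than in LcPOU5F3 clones (adjusted p = 0.046). Car12 had -4.25 and -3.51 in LcPOU5F1 clones, where neither array was well above background, -1.68 and -1.12 in LcPOU5F3 clones and -2.21 and -2.24 in mOct4 clones. LcPOU5F1 clones were lowest and LcPOU5F3 clones highest. Car12 was at least 2.54-fold lower in LcPOU5F1 than in LcPOU5F3 clones (adjusted p = 0.012), a bound against the dimmest signal counted as above background on each array. The same bound against mOct4 clones was 1.43-fold, with a difference that did not pass (adjusted p = 0.15), nor did LcPOU5F3 minus mOct4 (0.83 ± 0.32, adjusted p = 0.12).

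Ndrg1, a gene of growth arrest and differentiation as well as hypoxia, had 1.1 and -0.07 in LcPOU5F1 clones, 3.39 and 3.12 in LcPOU5F3 clones and 1.58 and 1.60 in mOct4 clones. Its groups did not overlap, with LcPOU5F1 lowest. Ndrg1 rose 3.17-fold in LcPOU5F3 against mOct4 clones (1.67 ± 0.40, adjusted p = 0.040) and was 6.68-fold lower in LcPOU5F1 than in LcPOU5F3 clones (-2.74 ± 0.40, adjusted p = 0.016). LcPOU5F1 minus mOct4 was -1.08 ± 0.40 (adjusted p = 0.30). Ankrd37, an ankyrin-repeat gene induced by HIF, had -0.76 and -1.26 in LcPOU5F1 clones, 0.33 and 0.43 in LcPOU5F3 clones and -1.41 and -0.87 in mOct4 clones. LcPOU5F3 clones lay above the overlapping other groups. Ankrd37 rose 2.87-fold against mOct4 (1.52 ± 0.27, adjusted p = 0.020) and was 2.62-fold lower in LcPOU5F1 than in LcPOU5F3 clones (adjusted p = 0.028).

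Bnip3, a mitochondrial receptor for mitophagy, had 3.72 and 2.59 in LcPOU5F1 clones, 4.82 and 4.42 in LcPOU5F3 clones and 4.33 and 4.26 in mOct4 clones. The LcPOU5F1 clones were lowest and 1.12 apart, and neither LcPOU5F1 minus mOct4 (-1.14 ± 0.39, adjusted p = 0.29) nor LcPOU5F1 minus LcPOU5F3 (-1.47 ± 0.39, adjusted p = 0.057) passed. The prolyl hydroxylases that mark HIF for degradation were not called. Egln1 had -2.35 and -2.15 in LcPOU5F1 clones, -2.15 and -1.65 in LcPOU5F3 clones and -2.26 and -2.08 in mOct4 clones, and Egln3 had 0.04 and -0.35, -0.24 and -0.53, and 0.09 and -0.06 in the same order of groups.

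**Figure D5:**
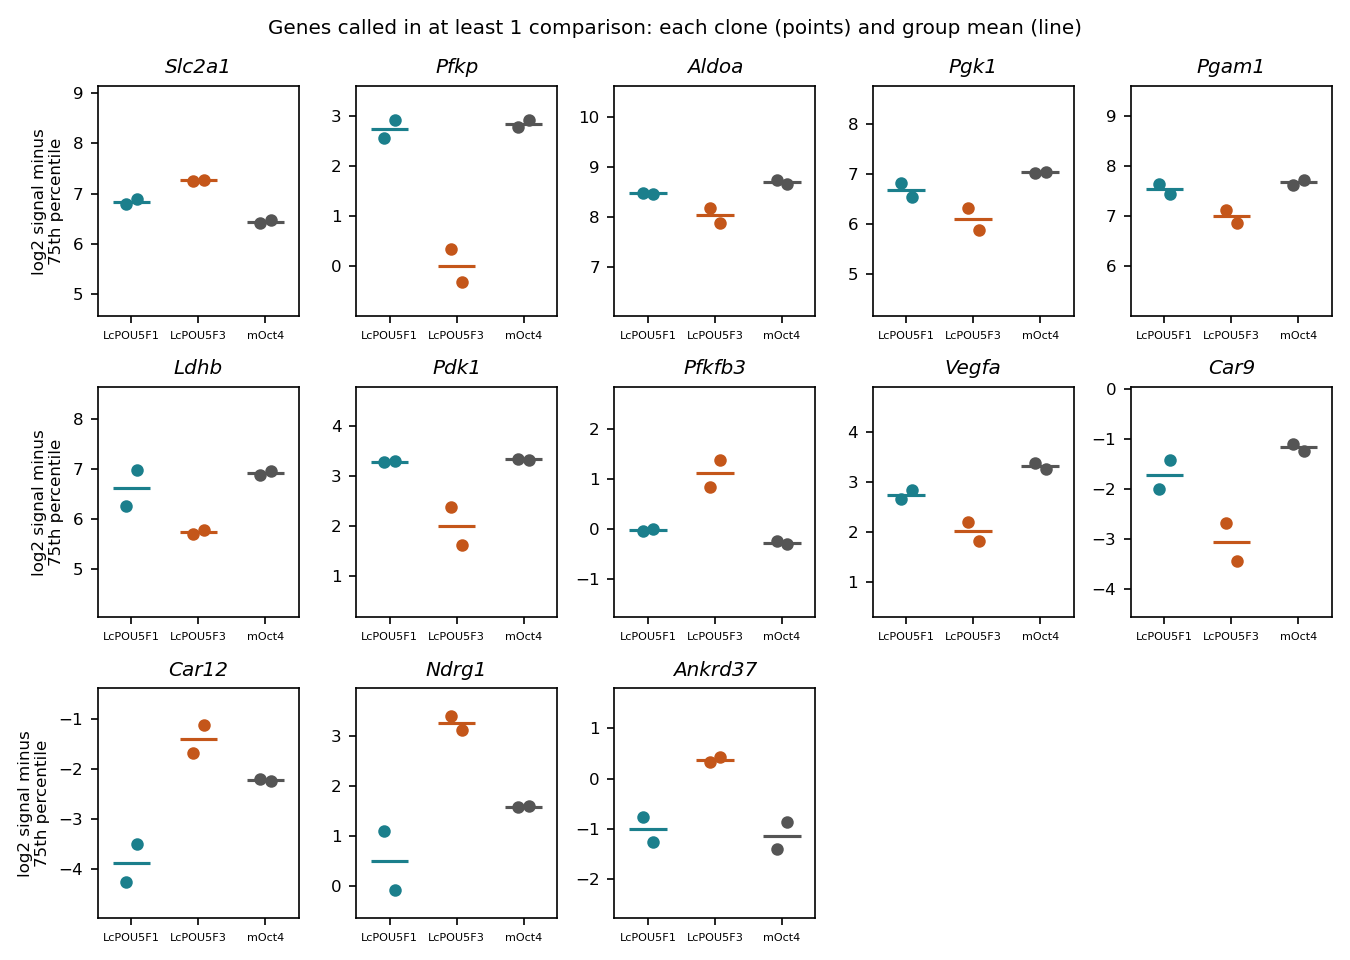
Log2 signal relative to the 75th percentile of the 13 genes called in at least 1 comparison, with a point for each clone and a line at the group mean, on axes that each span the same range. LcPOU5F3 points lie apart from the mOct4 points in every panel, below them for 8 genes and above them for Slc2a1, Pfkfb3, Car12, Ndrg1 and Ankrd37.

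The spread between clones was not the same in all groups. The median gap between the clones of a group over the 34 genes was 0.29 in LcPOU5F1, 0.31 in LcPOU5F3 and 0.08 in mOct4, on the log2 scale. Over all genes the gaps were 0.21, 0.33 and 0.15 in the same order. Gaps over 1 occurred for Bnip3 and Ndrg1 in LcPOU5F1 clones, for Slc16a3 and Aldoc in LcPOU5F3 clones, and for none of the 34 in mOct4 clones. The fit uses 1 spread for all 3 groups.

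Genes of the same pathways outside the 34 were counted from lists of their own. Of 10 HIF subunits and regulators, 1 rose in LcPOU5F3 against mOct4 clones, near the 11.8% of all genes that rose. That gene was Cited2, which competes with HIF for its coactivator (1.79 ± 0.42, 3.47-fold, adjusted p = 0.039). The median of that list was -0.04. Hif1a, the oxygen-regulated subunit, differed by 0.35 ± 0.15 (interval -0.04 to 0.74, adjusted p = 0.15), its paralog Epas1 by -0.16 ± 0.18 (-0.60 to 0.29), and Vhl, which degrades both, by 0.40 ± 0.24 (-0.22 to 1.02).

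Among 23 further hypoxia-response genes, 21 were tested, and 7 rose and 2 fell in LcPOU5F3 against mOct4 clones, where 11.8% of all genes went each way. The median was 0.51 over the 21 and -0.09 over all genes. Adm, which encodes adrenomedullin, had -0.59 and 1.09 in LcPOU5F3 clones, against -4.04 and -3.54 in mOct4 clones (16.5-fold higher, adjusted p = 0.013). Its probe was well above background on 1 of the 2 mOct4 arrays, so Adm passed the filter on dim probes through the LcPOU5F3 group alone. Its 16.5-fold ratio rests on a mOct4 signal near background, and a gene kept in this way could hardly be found lower in LcPOU5F3 clones. Hilpda, a lipid droplet protein, rose 3.09-fold and Plod2, a collagen lysyl hydroxylase, rose 4.22-fold. Kdm3a and Stc2, named here after their values were seen, fell by 1.19 and by 1.34.

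Against LcPOU5F3 clones, LcPOU5F1 clones had 1 of those 21 genes higher and 7 lower, where 10.5% of all genes were higher and 9.98% lower. The median was -0.66 over the 21 and 0.21 over all genes. Adm was at least 7.96-fold lower in LcPOU5F1 clones (adjusted p = 0.013), where its probe was not well above background on either array. Hilpda was 3.59-fold lower, and Stc2, a secreted glycoprotein, was 2.39-fold higher. None of the 10 regulators was called in this comparison. Against mOct4 clones, LcPOU5F1 clones had 0 genes called by limma in either list. An unadjusted p under 0.05 was reached by 1 of 10 and 2 of 21, against 2265 of all 14595 genes.

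Of 30 further genes of glycolysis and pyruvate metabolism, 26 were tested, and 3 rose and 5 fell in LcPOU5F3 against mOct4 clones. That is 30.8% called, near the 23.6% of all genes, and the median was -0.11, against -0.09 over all genes. Fbp2, a fructose bisphosphatase, which runs against phosphofructokinase, had 0.79 and 0.77 in LcPOU5F3 clones, against -0.67 and -0.70 in mOct4 clones (2.75-fold higher, adjusted p = 0.0071). Bsg, the chaperone of monocarboxylate transporters, had 3.9 and 3.84 in LcPOU5F3 clones, against 2.70 and 2.55 in mOct4 clones (2.37-fold higher, adjusted p = 0.020). Pdk4, another pyruvate dehydrogenase kinase, fell 2.01-fold, and Pdhx, a structural subunit of that complex, fell 1.63-fold. In LcPOU5F1 against LcPOU5F3 clones, 2 of the 26 were higher (Pdk4 and Pdhx) and 2 were lower (Fbp2 and Bsg). That is 15.4% called, against 20.5% of all genes. In LcPOU5F1 against mOct4 clones limma called 0. An unadjusted p under 0.05 was reached there by 2 of 26, against 2265 of all 14595 genes.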

How the data were processed

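Total RNA of 6 rescued ZHBTc4 clones was hybridised to 1-colour Agilent arrays. Per the file headers, the authors' deposited processed intensity is linear, background-subtracted and made with Agilent Feature Extraction 11.0.1.1, and the deposited series matrix holds the same intensity values, rounded. The array design names the build mm9, per the file headers. Control and outlier spots were left out, log2 intensity minus each array's 75th percentile was averaged per probe, and a probe needed to clear background on both arrays in 1 group or more to be kept. Probes were named through RefSeq accessions of GRCm38.p6, used for names and promoters only (Ero1l as Ero1a), and the kept probe with the highest mean stood for a gene.

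Group means were estimated jointly from the 6 arrays by lmFit and eBayes (limma 3.58.1, R 4.3.3, 3 residual and 5.16 moderated degrees of freedom), with Benjamini-Hochberg adjustment over 14595 genes. The steps were tested on simulated data. The number of arrays limits the precision. The rule for the members names symbols and uses no measured value, but the members, lists and tests were chosen with earlier results of these data known. Values on every array are given for genes called in a comparison, for genes not called whose groups did not overlap and whose means differed by at least 1, and for fixed families of isozymes. From the further lists, up to 4 called genes with the smallest p are named, with Hif1a, Epas1 and Vhl in any case. A gene that this rule names is not reported here. Where no array of a group was well above background, an "at least" ratio sets the brighter mean against, per array, the higher of the lowest signal above background and the probe's own. Alternatives were quantile normalization, median centring, normexp with an offset of 50 on the median spot intensity (the mean was not among the columns used here), other probe filters and probe rules, an intensity trend, a threshold of 0.1, a minimum 2-fold change, the series matrix, only the arrays compared, the slide or clone number as a block, and each array left out. Deviations of clone 1 from the group mean had a correlation of -0.10 between LcPOU5F3 and mOct4. With 2 clones a group, this 1 correlation cannot decide whether clone numbers pair the clones.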

Additional observations from a re-analysis of the deposited data

How the results depend on the processing

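The sign of each called member was the same under every setting that gave it a value, but many settings could not change it. The intensity trend, the test of every kept probe, the fit of only the arrays compared and the clone-number block keep every fold change. Clones of each called member did not overlap, so leaving out 1 array could not reverse its sign. The counts of kept directions that follow include such settings. Of the values of single genes, 1515 kept direction and side of the threshold, 131 lost the threshold and 54 gained it. The other 59 changed sign, and all of these were called neither as reported nor under the alternative. The 12 members called in LcPOU5F3 against mOct4 clones became 5 with no filter on dim probes, 0 with the slide as a block, and 0 to 13 with 1 array left out. Those 13 came without LcPOU5F3 clone 1. With the clone number as a replicate block, 0 of the 34 and 0 of all genes were called. Whether the numbers pair the clones is not known from these data. The 0 called in LcPOU5F1 against mOct4 clones became 4 with median centring, 1 with only the 4 arrays compared, and 0 to 1 with 1 array left out. The 7 called in LcPOU5F1 against LcPOU5F3 clones became 17 at a threshold of 0.1, 11 among probes well above background on all 6 arrays, 18 with an intensity trend, 3 with no filter, 12 with normexp, 12 with quantile normalization, 1 with only the 4 arrays compared, 1 with the slide as a block, and 1 to 14 with 1 array left out. Shares of all genes called moved as well. In LcPOU5F1 against LcPOU5F3 clones they were 34.2% at 0.1, 28.5% with all 6 arrays above background and 30.0% with the trend. With no filter, normexp, quantile normalization and only the 4 arrays compared they were 4.57%, 22.4%, 20.2% and 3.41%, against 20.5% as reported. In LcPOU5F3 against mOct4 clones, no filter gave 7.35%, against 23.6%. Calls over all genes also rose without LcPOU5F3 clone 1. A lone clone left in a group is assumed to vary like the other groups. The block and left-out settings use fewer degrees of freedom. The cause of these shifts was not tested. Median centring moved the median of all genes to -0.27 in LcPOU5F1 against mOct4 clones and to -0.20 in LcPOU5F1 against LcPOU5F3 clones, against 0.10 and 0.21 on the percentile scale. Quantile normalization changed the split in LcPOU5F3 against mOct4 clones to 5 higher and 4 lower, against 4 and 8. Over all genes, median centring gave 502 higher and 1852 lower in LcPOU5F1 against LcPOU5F3 clones, and quantile normalization 1176 and 1772, against 1531 and 1456 as reported. In LcPOU5F1 against mOct4 clones, calls over all genes were 750 with median centring, 105 with quantile normalization, 537 with only the 4 arrays compared and 5 as reported. Signals near background limit Car9, Car12 and Egln1, and Pfkp rests on the brighter of its probes.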
